A study of Mus musculus with 29 samples.

Results

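The genes described here are 10 markers of monocytes and macrophages among the 54532 genes counted in the colon of 29 mice from 6 models of colitis and 3 groups of controls. A gene was a member when its Ensembl identifier mapped to the symbol Cd14, Ly6c2, Ccr2, Trem1, Arg1, Adgre1, Cx3cr1, Mrc1, Cd163 or Lyz2, and each symbol mapped to a single row of the counts. Cd14, Ly6c2, Ccr2, Trem1 and Arg1 were read as 5 inflammatory markers. Adgre1, Cx3cr1, Mrc1 and Cd163 were read as 4 resident markers, and Lyz2, made by both kinds of cell, was kept as a shared myeloid marker. All 10 reached the mean count of 3 required for a test, as did 18616 genes in all.

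Macrophages of the adult gut are replaced throughout life by monocytes that leave the blood. A newly arrived monocyte carries the surface protein Ly6C and the chemokine receptor CCR2, and in healthy tissue it loses both as it becomes a resident macrophage with F4/80, CX3CR1, the mannose receptor and CD163. Inflamed colon is known for monocytes and macrophages that keep the early, inflammatory state. The comparison asked of these data was how the inflammatory markers stood against the resident ones in each model relative to its own controls.

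The submitters' labels give the following groups. Wild-type mice labelled Balb/C were left untreated (n = 3) and served as controls for 3 models also labelled Balb/C. These received DSS at 3% in drinking water for 5 days with culling at day 10 (n = 3), 3 mg of DNBS by the rectal route in ethanol (n = 3), or an IL10 blocking antibody, given as 750 µg of an antibody to the IL-10 receptor with culling by 4 weeks (IL-10 deficiency, n = 4). Untreated mice labelled C57BL/6 Rag1-/-, which lack mature T and B cells, (n = 3) were the controls for 2 models with the same genotype label. One received 500000 naive CD4+ T cells and was culled 6 to 8 weeks later (TCT, n = 3), and the other received 50 µg of agonistic anti-CD40 antibody and was culled at day 7 (n = 3). Untreated Balb/C Rag2-/- mice (n = 3) were the controls for the TRUC mice, Balb/C Tbx21-/- x Rag2-/-, which carry the same Rag2 deletion and develop colitis without treatment (n = 4). The treatment text names Rag2-/- recipients for TCT where the genotype label gives Rag1-/-. The labels give no ages. The study's methods describe wild-type and DSS mice as C57BL/6 and the IL-10 model as a germline deletion, so the strain of these groups and the agent of that model are given differently by the sources, as are the days or weeks at which DSS and TCT mice were culled, for which the label's values stand here. Each library was made from the RNA of an undivided colon segment, so fewer cells of a type and less RNA per cell cannot be told apart.

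Total counts ran from 10725564 to 14977094 per mouse. Levels are given as CPM, counts per 1000000 counts after TMM scaling of the libraries, and a mouse with 0 counts of a gene may hold up to 3, which is 0.179 to 0.313 CPM (counting error only). A check of the labels went against the strain given for 6 groups, which are named here by their labels throughout. H2-Ea-ps, the class II E alpha gene that is silent in C57BL/6 and transcribed in BALB/c, was at 0 or 1 count in every wild-type, DSS, DNBS, IL-10 deficiency and TCT mouse, and at 67.7 to 317 CPM in every mouse labelled Rag1-/- control, anti-CD40, Rag2-/- control or TRUC. Reads on the targeted gene Rag2 were found in these latter groups (6 to 99 counts per mouse, at most 1 count in any other mouse), while Rag1 had 20 to 33 counts in TCT mice and at most 4 in any other. Tbx21 was at 2.12 to 4.62 CPM in TRUC mice and 0.0765 to 0.528 CPM in Rag2-/- controls, and Il10 at 5.23 to 11.5 CPM in IL-10 deficiency and 0.0762 to 0.266 CPM in wild-type mice. Gene counts do not show whether such reads lie inside a deleted part. The TCT mice thus differed from the mice labelled Rag1-/- control in these genotype genes as well as in the transfer, and these cannot be told apart. For TCT and anti-CD40 the counts of markers and of related lists are therefore given also against the group that shares their H2-Ea-ps pattern, the wild-type mice for TCT and the Rag2-/- mice for anti-CD40. DSS mouse 8 stood apart from DSS mice 5 and 6 in several markers below, and DSS counts are given with and without it.

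Values follow the order of the mouse numbers, which were 1, 2 and 4 for wild-type controls, 5, 6 and 8 for DSS, 11, 14 and 16 for DNBS, 1 to 4 for IL-10 deficiency, 2, 3 and 4 for Rag1-/- controls, 1, 3 and 5 for TCT, 6, 7 and 8 for anti-CD40, 1, 2 and 4 for Rag2-/- controls, and 2 to 5 for TRUC. Changes are log2 fold changes from 1 edgeR fit of all 9 groups, with the standard error after ±, and a gene was said to rise or fall when its Benjamini-Hochberg adjusted p was under 0.05. Where nothing says that mice of a group came from separate litters or cages, these p-values measure the spread between the mice sampled.

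The bases before the start of 5 markers are shown because these genes covered the range of responses described below, from 2 inflammatory markers that rose in 4 models each (Trem1, Ly6c2) over the shared marker (Lyz2) to the resident markers that fell in IL-10 deficiency (Mrc1, Cd163). The sequences are those of RefSeq on GRCm38.p6, which held a window for 7 of the 10 markers, and run 5′ to 3′ on the strand of the gene up to its start, without the bases that GENCODE M21 places inside the gene. Capitals mark AGGAAGT or its reverse complement, a core bound by ETS factors such as PU.1, the lineage factor of macrophages.
Ly6c2 (chr15:75111972-75112221, minus strand): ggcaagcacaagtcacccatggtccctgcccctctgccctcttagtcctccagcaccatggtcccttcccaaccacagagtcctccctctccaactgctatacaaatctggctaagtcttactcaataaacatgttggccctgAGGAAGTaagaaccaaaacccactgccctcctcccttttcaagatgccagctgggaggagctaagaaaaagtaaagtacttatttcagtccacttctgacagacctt
Trem1 (chr17:48232489-48232738, plus strand): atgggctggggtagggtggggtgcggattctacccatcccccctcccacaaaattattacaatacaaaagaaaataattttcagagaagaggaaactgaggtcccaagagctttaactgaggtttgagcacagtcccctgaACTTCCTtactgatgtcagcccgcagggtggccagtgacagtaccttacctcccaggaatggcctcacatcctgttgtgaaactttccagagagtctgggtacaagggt
Lyz2 (chr10:117282322-117282522, minus strand): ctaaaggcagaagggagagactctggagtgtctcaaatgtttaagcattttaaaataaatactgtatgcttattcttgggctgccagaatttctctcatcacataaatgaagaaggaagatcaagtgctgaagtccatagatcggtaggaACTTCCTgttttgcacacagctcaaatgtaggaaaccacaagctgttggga
Mrc1 (chr2:14229164-14229391, plus strand): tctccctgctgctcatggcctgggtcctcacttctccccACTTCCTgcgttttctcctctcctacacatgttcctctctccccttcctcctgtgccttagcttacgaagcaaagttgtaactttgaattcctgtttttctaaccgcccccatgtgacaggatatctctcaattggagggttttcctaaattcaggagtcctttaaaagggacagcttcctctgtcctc
Cd163 (chr6:124304401-124304650, plus strand): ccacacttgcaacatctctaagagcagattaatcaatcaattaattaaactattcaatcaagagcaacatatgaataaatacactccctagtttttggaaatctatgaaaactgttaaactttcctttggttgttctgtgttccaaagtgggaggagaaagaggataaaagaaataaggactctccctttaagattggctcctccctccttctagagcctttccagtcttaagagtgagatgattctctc

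On either strand of the 250 bases before the start, AGGAAGT was found for 4 of the 7 markers with a window, Ly6c2, Trem1, Lyz2 and Mrc1, and in 7.69% of the 32851 windows of all genes. In the stretches printed it began 107 bases before the last base of Ly6c2, 109 of Trem1, 51 of Lyz2 and 189 of Mrc1, that last base counted as 1. A further start of Ly6c2 gave an overlapping window with the same match and 1 more. Of 5 other motifs searched in the same way, TTCNNNGAA (STAT) was found for 1 marker, against 7.02% of all windows, and TTGCNNAA (C/EBP, 9.56% of all windows), TGANTCA (AP-1, 6.75%), GAAA and GAAA spaced by 2 bases (IRF, 2.98%) and GGG and TTTCC spaced by 2 bases (NF-kB, 1.41%) for none of the 7. The motifs were picked with the responses known, and a match describes the letters of the window only.

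Against the labelled controls Ccr2 rose in 6 of 6 models, Arg1 and the shared marker Lyz2 in 5, and Cd14, Ly6c2 and Trem1 in 4. The resident markers Adgre1, Cx3cr1 and Mrc1 rose in 3 models each and Cd163 in 2, and Mrc1 and Cd163 fell in IL-10 deficiency. With TCT set against the wild-type mice and anti-CD40 against the Rag2-/- mice, Ccr2, Cd14 and Lyz2 rose in 5 models each, Trem1 and Arg1 in 4, Ly6c2, Adgre1 and Cx3cr1 in 3, Mrc1 in 2 and Cd163 in 1, and Cd163 fell in 2. How often the inflammatory and the resident markers rose was not compared by a test.

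In TRUC mice 9 of the 10 markers rose and 0 fell, where 22.4% of all genes tested rose and 23.4% fell. DSS likewise gave 9 rises and 0 falls, against 17.7% and 16.3% of all genes, and 8 rises without DSS mouse 8, against 10.4% and 10.2%. DNBS gave 2 rises and 0 falls, against 3.95% and 2.21% of all genes. The IL-10 deficiency model gave 7 rises and 2 falls, against 27.2% and 26.1% of all genes, so the falls were no more frequent than among all genes. TCT gave 9 rises and 0 falls against its labelled controls (16.1% and 14% of all genes) and 6 rises and 0 falls against the wild-type mice (16.9% and 13.8%). Anti-CD40 gave 3 rises and 0 falls against its labelled controls (10.9% and 10.7% of all genes), and 2 rises and 1 fall against the Rag2-/- mice (12.4% and 11.8%).

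**Figure D1:**
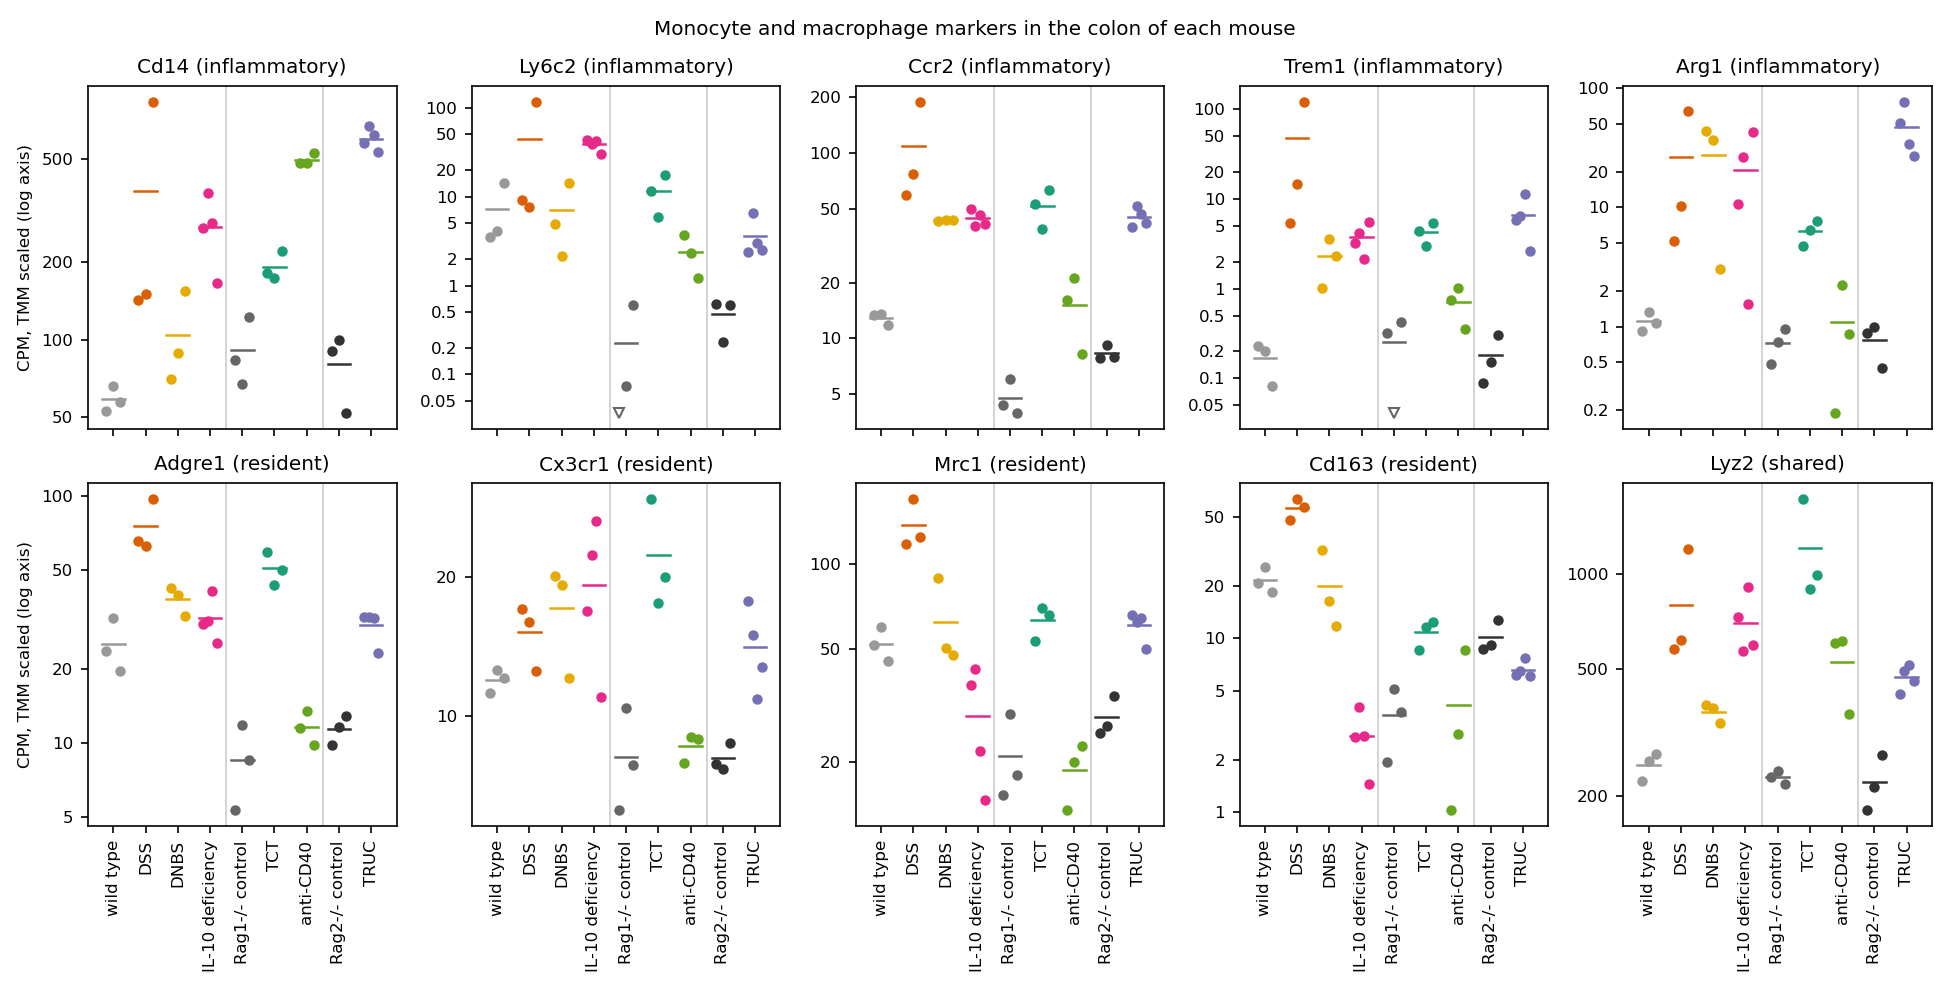
CPM of each marker (TMM scaled, log axis) in the 9 groups, with 1 point a mouse and a bar at the group mean; open triangles mark mice with 0 counts, drawn below the lowest value. Ccr2 lay above the model's labelled control group in every mouse of all 6 models, though anti-CD40 mouse 8 at 8.25 CPM lay below the highest Rag2-/- control at 9.18 CPM. Cd163 lay at 1.46 to 4.05 CPM in IL-10 deficiency against 18.6 to 25.8 CPM in wild-type mice.

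Ccr2, the receptor that brings monocytes out of the bone marrow and into tissue, is on GRCm38 at chr9:124101950-124113557 (plus strand, ENSMUSG00000049103). Its levels were 13.3, 13.6 and 11.8 CPM in wild-type mice, 59.2, 77.2 and 189 CPM with DSS, 42.9, 43.7 and 43.4 CPM with DNBS, and 49.7, 40.2, 46.3 and 41.6 CPM in IL-10 deficiency. Mice labelled Rag1-/- control had 4.38, 6.04 and 3.96 CPM, TCT mice 53.3, 39.1 and 62.8 CPM, and anti-CD40 mice 16.1, 21.2 and 8.25 CPM. In Rag2-/- controls it was at 7.87, 9.18 and 7.92 CPM, and in TRUC mice at 39.9, 51.9, 46.7 and 42 CPM. Every mouse with colitis was above every mouse of its control group. The rise was 3.42 ± 0.34 in TCT (adjusted p = 6.68e-08), 3.07 ± 0.32 in DSS (adjusted p = 9.51e-07), 2.44 ± 0.31 in TRUC (adjusted p = 3.45e-06), 1.78 ± 0.30 in IL-10 deficiency (adjusted p = 4.49e-05), 1.75 ± 0.31 in DNBS (adjusted p = 0.00285) and 1.65 ± 0.34 with anti-CD40 (adjusted p = 0.00149). Against the Rag2-/- mice the anti-CD40 value was 0.86 ± 0.32 (adjusted p = 0.0542), and against wild-type mice TCT still rose by 2.00 ± 0.31 (adjusted p = 7.74e-05). The DSS rise was 2.40 ± 0.24 without DSS mouse 8 (adjusted p = 6.69e-07).

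The ligands of CCR2 rose beside it in most models. Ccl2 rose in 6 of 6 models, by 2.39 in DNBS to 3.95 in TRUC and 5.11 in DSS, the last 2.96 without DSS mouse 8. Ccl7 rose in 5 models, by 4.07 in IL-10 deficiency to 6.77 in TRUC, and measured 2.31 in DNBS without passing the test. Its DSS rise was 3.07 without DSS mouse 8. Ccl12 rose in 4 models (1.46 in TRUC, 3.08 in DSS, 1.86 in TCT, 1.80 with anti-CD40), with 1.04 in DNBS and 0.73 in IL-10 deficiency, and it did not pass against the other controls of TCT (1.15) and anti-CD40 (1.34). Ccl8, known mainly as a ligand of CCR8 in mice, rose in 5 models by 3.98 to 5.23, with 1.64 in DNBS.

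Ly6c2 encodes the Ly6C protein of early monocytes and lies at chr15:75108158-75111970 (minus strand, ENSMUSG00000022584). Wild-type mice had 3.5, 4.06 and 14.1 CPM, DSS mice 9.12, 7.65 and 117 CPM, DNBS mice 4.89, 2.17 and 14.2 CPM, and mice with IL-10 deficiency 43.1, 39.4, 41.7 and 30 CPM. Among the mice labelled Rag1-/- control the levels were 0, 0.0736 and 0.602 CPM, with TCT 11.7, 5.89 and 17.4 CPM, and with anti-CD40 3.66, 2.31 and 1.22 CPM. Rag2-/- controls held 0.619, 0.229 and 0.604 CPM and TRUC mice 2.36, 6.49, 3.02 and 2.52 CPM. In IL-10 deficiency all 4 mice exceeded the wild-type range, while among the DSS mice only mouse 8 did so and mice 5 and 6 lay within it. The rise in IL-10 deficiency was 2.43 ± 0.77 (adjusted p = 0.0111) and that in DSS 2.63 ± 0.80 (adjusted p = 0.0139), which became 0.23 ± 0.63 (adjusted p = 0.832) without DSS mouse 8. Without wild-type mouse 1 or 2 the adjusted p was 0.0594 or 0.0572 in IL-10 deficiency and 0.0679 or 0.0647 in DSS. DNBS mice overlapped wild-type mice, with a change of -0.03 and a 95% interval from -1.67 to 1.62.

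Control levels of Ly6c2 differed with the genotype genes named above. The 4 groups with H2-Ea-ps reads, controls and models together, ran from 0 to 6.49 CPM, and the 5 groups without them from 2.17 to 117 CPM. Summed lymphocyte markers also differed between these groups, at 4.51 to 15.1 CPM in the former and 69.7 to 2110 CPM in the latter. The part of lymphocytes in the Ly6c2 results was not tested. Against the labelled controls, with 8 counts over 3 mice, Ly6c2 rose by 5.70 ± 1.2 in TCT (adjusted p = 0.000832), but it measured 0.70 ± 0.79 against wild-type mice (adjusted p = 0.523). From the pooled counts the TCT level was 54.1 times that of the labelled controls, with a counting interval of 27.2 to 126. In TRUC mice the rise over Rag2-/- controls, which held 18 counts over 3 mice, was 2.87 ± 1.08 (adjusted p = 0.0329), a pooled ratio of 7.36 with a counting interval of 4.52 to 12.7. This call was lost when any 1 Rag2-/- control or TRUC mouse 3 was left out (adjusted p of 0.0692 to 0.107). With anti-CD40 the change was 3.40 ± 1.35 (adjusted p = 0.0726). Of the 50-base windows of the Ly6c2 exons 14.5% occur also in other genes, Ly6c1 among them, an endothelial gene that rose in 5 models, so the split of reads between the pair is uncertain.

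Cd14, the co-receptor that hands bacterial lipopolysaccharide to the TLR4 complex, is located on GRCm38 at chr18:36725067-36726798 (minus strand, ENSMUSG00000051439). It was measured at 53.1, 66.2 and 57.2 CPM in wild-type mice, 143, 150 and 838 CPM with DSS, 70.6, 89.1 and 154 CPM with DNBS, and 270, 369, 284 and 166 CPM in IL-10 deficiency. The mice labelled Rag1-/- control were at 83.4, 67.4 and 122 CPM, TCT mice at 182, 173 and 220 CPM, and anti-CD40 mice at 483, 484 and 529 CPM. TRUC mice reached 578, 673, 624 and 535 CPM over 90.2, 99.6 and 51.9 CPM in Rag2-/- controls. No mouse with colitis overlapped its controls in any model. The rise was 2.90 ± 0.46 in TRUC (adjusted p = 3.72e-05), 2.68 ± 0.47 in DSS (adjusted p = 0.000174), 2.45 ± 0.47 with anti-CD40 (adjusted p = 0.000858) and 2.21 ± 0.45 in IL-10 deficiency (adjusted p = 0.000295). Without DSS mouse 8 the DSS rise was 1.31 ± 0.30 (adjusted p = 0.00304). The changes of 1.07 ± 0.45 in TCT (adjusted p = 0.0741) and 0.83 ± 0.45 in DNBS (adjusted p = 0.259) did not pass, and against wild-type mice TCT rose by 1.70 ± 0.46 (adjusted p = 0.0072).

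Partners of CD14 moved unevenly. Lbp, which loads lipopolysaccharide onto CD14, rose in 4 models, by 2.82 in IL-10 deficiency to 4.38 with anti-CD40, and Tlr4, the signalling receptor, rose in 5 models by 0.81 to 1.42. Ly96, the MD-2 subunit of the receptor, rose in IL-10 deficiency (0.64) and against the labelled controls in TCT (1.22, but 0.11 against wild-type mice) and with anti-CD40 (0.67, but 0.21 against Rag2-/- mice), and measured 0.48, 0.08 and -0.10 in TRUC, DSS and DNBS.

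Trem1 encodes a receptor that amplifies inflammatory signalling in monocytes and neutrophils through the adaptor DAP12. The gene lies at chr17:48232768-48246924 (plus strand, ENSMUSG00000042265) and overlaps a gene on the other strand, from which an unstranded count could not separate it. Control mice held almost no Trem1 reads, with 3, 3 and 1 counts in wild-type mice (0.228, 0.2 and 0.082 CPM), 4, 0 and 5 counts in mice labelled Rag1-/- control and 1, 2 and 4 counts in Rag2-/- controls. DSS mice were at 5.41, 14.6 and 122 CPM, DNBS mice at 1.01, 3.56 and 2.3 CPM and mice with IL-10 deficiency at 3.2, 4.15, 2.14 and 5.54 CPM. TCT gave 4.36, 2.99 and 5.46 CPM, anti-CD40 0.751, 1.03 and 0.359 CPM, and TRUC 5.9, 6.49, 11.5 and 2.6 CPM. All models but anti-CD40 lay wholly above their controls. Trem1 had the largest change of any marker in DSS, 8.01 ± 1.06 (adjusted p = 9.75e-06), and 5.77 ± 0.74 without DSS mouse 8 (adjusted p = 1.03e-05). It rose by 5.08 ± 1.04 in TRUC (adjusted p = 0.000446), 4.35 ± 1.07 in IL-10 deficiency (adjusted p = 0.00165) and 4.09 ± 1.05 in TCT (adjusted p = 0.00452), and measured 3.63 ± 1.13 in DNBS (adjusted p = 0.0554) and 1.49 ± 1.27 with anti-CD40 (adjusted p = 0.427). Since the wild-type mice held 7 counts in all, the pooled ratios carry wide counting intervals, 244 (118 to 608) in DSS, 21 (9.97 to 53.2) in IL-10 deficiency and 12.5 (5.84 to 32.0) in DNBS. These intervals leave out the spread between mice, and DSS mouse 8 supplied 1526 of the 1826 DSS counts. Without that mouse the DSS mean was 10 CPM, against 0.17 CPM in wild-type mice.

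Neutrophils also carry TREM1, and their markers moved beside it. Of 12 neutrophil genes Ly6g held most of the reads in controls, at 130 to 337 CPM in the 9 control mice, so the summed level is given for the other 11. It was 1.46 to 1.98 CPM in wild-type mice, with 3 of the 12 genes at 0 in all of them, against 195 to 1910 CPM in DSS, 23.1 to 111 CPM in DNBS and 137 to 346 CPM in IL-10 deficiency. It was 1.22 to 1.81 CPM in mice labelled Rag1-/- control (4 of the 12 at 0), 115 to 269 CPM in TCT and 33.9 to 192 CPM with anti-CD40, and 1.77 to 2.57 CPM in Rag2-/- controls (3 of the 12 at 0) against 758 to 1260 CPM in TRUC. Cxcr2, a chemokine receptor of neutrophils, had 0 counts in all 9 control mice and 0.282 to 74.6 CPM in the mice with colitis. Of the 10 neutrophil genes tested, 9 rose in DSS (8 of 9 tested without DSS mouse 8) and IL-10 deficiency, 8 in TRUC, 7 in TCT (also 7 against wild-type mice), 6 in DNBS and 5 with anti-CD40 (4 against Rag2-/- mice). The shares of all genes that rose are those given above with the counts of markers. The part of neutrophils in the Trem1, Cd14 and Lyz2 results was not tested. Tyrobp, the gene of DAP12, rose in 6 of 6 models by 1.05 to 2.78 (0.79 with anti-CD40 against Rag2-/- mice, which did not pass), as did Pglyrp1, a ligand of TREM1, by 0.83 to 2.21.

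Arg1, which turns arginine into ornithine, is found at chr10:24915221-24927484 (minus strand, ENSMUSG00000019987). Its 9 control mice ran from 0.453 to 1.33 CPM. DSS mice had 5.22, 10.2 and 64.5 CPM, DNBS mice 43.6, 36.8 and 3.07 CPM and mice with IL-10 deficiency 10.7, 26.3, 1.54 and 43.3 CPM. TCT mice had 4.71, 6.49 and 7.69 CPM, anti-CD40 mice 0.188, 2.23 and 0.861 CPM and TRUC mice 50.9, 77.4, 34.2 and 26.9 CPM. All models but anti-CD40 were above their controls in every mouse, with a wide spread between mice in DSS, DNBS and IL-10 deficiency. Arg1 rose by 5.92 ± 1.11 in TRUC (adjusted p = 0.000192), the largest change of any marker there, by 4.64 ± 1.05 in DNBS (adjusted p = 0.0125), 4.57 ± 1.05 in DSS (adjusted p = 0.00185), 4.18 ± 1.03 in IL-10 deficiency (adjusted p = 0.00164) and 3.11 ± 1.14 in TCT (adjusted p = 0.0419). Its DSS change was 2.79 ± 0.97 without DSS mouse 8 (adjusted p = 0.0445). The DNBS call was lost without wild-type mouse 1 (adjusted p = 0.0726) or mouse 2 (adjusted p = 0.0620), and the TCT call against wild-type mice (2.49 ± 1.06, adjusted p = 0.0772) and without any 1 labelled control or TCT mouse 3 or 5 (adjusted p of 0.0732 to 0.114).

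Genes around arginine and its inducers gave the setting of Arg1. Nos2, which competes for arginine and makes nitric oxide, rose in 6 of 6 models by 6.72 to 10.23, and Arg2, the mitochondrial arginase, rose in TRUC (1.83), DSS (3.99) and IL-10 deficiency (2.40). The DSS value of Arg2 was 0.94 without DSS mouse 8 (adjusted p = 0.283), and in TCT Arg2 measured -0.34 against the labelled controls and rose by 2.49 against wild-type mice. The arginine transporter gene Slc7a2 rose in DSS (2.89, and 1.2 without DSS mouse 8) and TCT (2.65, but 0.94 against wild-type mice, which did not pass), and Odc1, which uses ornithine, rose in TRUC, DSS and TCT by 0.80 to 1.04 (0.55 for TCT against wild-type mice, which did not pass). Il4ra, the receptor chain of the cytokines that induce Arg1 in macrophages, rose in 5 models by 1.61 to 2.63, whereas its ligand gene Il4 rose in none and fell in IL-10 deficiency (-0.97). Il13, also listed among the ligands and partners, did not reach the mean count required for a test.

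Adgre1, the gene of the F4/80 antigen of mature macrophages, is at chr17:57358691-57483527 (plus strand, ENSMUSG00000004730). The wild-type, DSS, DNBS and IL-10 deficiency groups gave 23.6, 32.2 and 19.5 CPM, 65.7, 62.7 and 97.7 CPM, 42.5, 39.8 and 32.7 CPM, and 30.3, 31.1, 41.3 and 25.4 CPM, in that order. Mice labelled Rag1-/- control, TCT mice and anti-CD40 mice gave 5.35, 11.8 and 8.51 CPM, 59.6, 43.5 and 50.3 CPM, and 11.5, 13.5 and 9.82 CPM. From Rag2-/- controls to TRUC mice the levels went from 9.82, 11.6 and 12.8 CPM to 32.4, 32.5, 32 and 23.2 CPM. DSS, DNBS, TCT and TRUC mice were above their controls without overlap. It rose by 2.58 ± 0.25 in TCT (adjusted p = 4.81e-08), 1.58 ± 0.24 in DSS (adjusted p = 3.43e-05) and 1.39 ± 0.23 in TRUC (adjusted p = 6.13e-05). The changes in DNBS (0.61, 95% interval 0.13 to 1.09, adjusted p = 0.112), IL-10 deficiency (0.35, interval -0.11 to 0.81) and anti-CD40 (0.44, interval -0.08 to 0.95) did not pass. Wild-type mice had 19.5 to 32.2 CPM and the 6 mice labelled Rag1-/- or Rag2-/- control 5.35 to 12.8 CPM, and the TCT rise was 1.02 ± 0.24 against wild-type mice (adjusted p = 0.00232).

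Cx3cr1, the fractalkine receptor that marks resident gut macrophages, is at chr9:119901616-120069879 (minus strand, ENSMUSG00000052336), a stretch that holds 9 other annotated genes. Its changes were small, from 0.08 with anti-CD40 to 1.46 in TCT. Wild-type mice had 11.2, 12.6 and 12.1 CPM, DSS mice 17.1, 16 and 12.5 CPM, DNBS mice 20.1, 19.3 and 12.1 CPM, and mice with IL-10 deficiency 16.9, 22.4, 26.6 and 11 CPM. The labelled Rag1-/- controls had 6.24, 10.4 and 7.83 CPM against 29.7, 17.6 and 20 CPM in TCT and 7.89, 9 and 8.89 CPM with anti-CD40. Rag2-/- controls had 7.87, 7.65 and 8.75 CPM and TRUC mice 17.8, 15, 10.9 and 12.8 CPM. Only TCT and TRUC mice stood clear of their controls. The TCT rise was 1.46 ± 0.27 (adjusted p = 0.000198), and 0.90 ± 0.26 against wild-type mice (adjusted p = 0.0115). The other rises were 0.80 ± 0.25 in TRUC (adjusted p = 0.0121) and 0.68 ± 0.25 in IL-10 deficiency (adjusted p = 0.0234). The last of these was lost under 10 of 16 other settings, among them leaving out any wild-type mouse. Its ligand gene Cx3cl1 rose in TCT against the labelled controls (0.77), with -0.57 and a fall against wild-type mice, and fell in TRUC (-0.56) and DSS (-0.66).

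Mrc1 encodes the mannose receptor CD206 and lies at chr2:14229392-14332057 (plus strand, ENSMUSG00000026712). In wild-type mice it was at 51.9, 60 and 45.5 CPM, with DSS at 118, 170 and 124 CPM, with DNBS at 89.3, 50.5 and 47.7 CPM, and in IL-10 deficiency at 37.4, 42.6, 22 and 14.8 CPM. The labelled Rag1-/- controls were at 15.4, 29.6 and 18.1 CPM, TCT mice at 53.6, 69.8 and 66.3 CPM and anti-CD40 mice at 13.6, 20 and 22.9 CPM. Rag2-/- controls were at 25.4, 26.8 and 34.4 CPM and TRUC mice at 65.9, 62.7, 64.7 and 50.2 CPM. DSS, TCT and TRUC mice lay above their controls and all 4 mice with IL-10 deficiency below theirs. Mrc1 rose by 1.39 ± 0.30 in DSS (adjusted p = 0.00114), 1.08 ± 0.29 in TRUC (adjusted p = 0.00423) and 1.58 ± 0.31 in TCT (adjusted p = 0.000381), the last becoming 0.27 ± 0.30 against wild-type mice (adjusted p = 0.517). In IL-10 deficiency it fell by 0.85 on the log2 scale (SE 0.28, adjusted p = 0.0144), a call lost without wild-type mouse 2 (adjusted p = 0.0595) or mouse 4 of the model (adjusted p = 0.0516). DNBS (0.25, interval -0.36 to 0.87) and anti-CD40 (-0.16, interval -0.80 to 0.48) overlapped their controls.

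Cd163, the scavenger receptor for haptoglobin-haemoglobin complexes, is at chr6:124304656-124330527 (plus strand, ENSMUSG00000008845). Its levels were 21, 25.8 and 18.6 CPM in wild-type mice, 47.9, 63.9 and 57.1 CPM with DSS, 32.3, 16.4 and 11.8 CPM with DNBS, and 2.7, 4.05, 2.74 and 1.46 CPM in IL-10 deficiency. For the groups labelled Rag1-/- they were 1.94, 5.15 and 3.78 CPM in controls, 8.55, 11.6 and 12.4 CPM in TCT and 1.03, 2.83 and 8.61 CPM with anti-CD40. Rag2-/- controls had 8.67, 9.18 and 12.8 CPM and TRUC mice 6.19, 6.49, 7.69 and 6.1 CPM. Every DSS mouse was above and every mouse with IL-10 deficiency below the wild-type range, and all 4 TRUC mice were below their controls. It rose by 1.37 ± 0.42 in DSS (adjusted p = 0.0142) and fell by 2.99 on the log2 scale in IL-10 deficiency (SE 0.43, adjusted p = 8.37e-06), where it ranked 18434 of 18616 genes from the largest rise down. The DSS call held without DSS mouse 8 (1.36 ± 0.45, adjusted p = 0.0354) and was lost without wild-type mouse 4 (adjusted p = 0.0583). In TRUC the change was -0.63 with an interval from -1.48 to 0.22 (adjusted p = 0.215), and tests of these groups alone called it lower (adjusted p = 0.00904 with edgeR and 0.00653 with DESeq2). TCT depended on the control, with a rise of 1.57 ± 0.46 over the labelled controls (adjusted p = 0.0117, and 0.0654 without mouse 2 of these) and -1.01 ± 0.43 against wild-type mice (adjusted p = 0.0761). Anti-CD40 did too, with 0.22 ± 0.48 against its labelled controls (adjusted p = 0.781) and a fall of -1.26 ± 0.45 against the Rag2-/- mice (adjusted p = 0.0446).

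Genes whose products act with CD163 rose in IL-10 deficiency, where Cd163 fell. Hp, which encodes haptoglobin, rose in 5 models, by 2.83 in TRUC to 4.63 in IL-10 deficiency and 6.97 in DSS (4.88 without DSS mouse 8), with 1.36 with anti-CD40. Hmox1, which breaks down the haem taken up through CD163, rose in 6 of 6 models by 1.18 to 3.33. Smooth muscle markers moved with Cd163 in IL-10 deficiency, where 5 of 6 fell, and their summed level was 2630 to 4950 CPM against 6480 to 8060 CPM in wild-type mice. In DSS none of the 6 passed the test, with a sum of 4720 to 11600 CPM, and in TRUC 2 fell, with a sum of 2970 to 4350 CPM against 5980 to 6580 CPM. Lymphocyte markers summed to 1270 to 2110 CPM in IL-10 deficiency and 125 to 405 CPM in wild-type mice. The part of muscle and lymphocytes in the Cd163 and Mrc1 results was not tested.

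Lyz2, lysozyme M of monocytes, macrophages and neutrophils, is at chr10:117277331-117282321 (minus strand, ENSMUSG00000069516). Its control mice ran from 181 to 271 CPM in all 3 groups. DSS mice had 580, 617 and 1190 CPM, DNBS mice 388, 378 and 340 CPM, and mice with IL-10 deficiency 728, 571, 909 and 597 CPM. TCT mice had 1720, 895 and 990 CPM, anti-CD40 mice 607, 615 and 363 CPM, and TRUC mice 418, 493, 518 and 461 CPM. Every mouse with colitis was above its controls. Lyz2 rose by 2.39 ± 0.27 in TCT (adjusted p = 3.2e-07), 1.67 ± 0.26 in DSS (adjusted p = 5.14e-05), 1.48 ± 0.25 in IL-10 deficiency (adjusted p = 3.96e-05), 1.21 ± 0.26 with anti-CD40 (adjusted p = 0.00206) and 1.09 ± 0.24 in TRUC (adjusted p = 0.000975), and measured 0.56 ± 0.25 in DNBS (adjusted p = 0.178). Unlike Cd163 and Ly6c2 it gave near values against either control, 2.26 for TCT against wild-type mice and 1.25 for anti-CD40 against Rag2-/- mice. Its DSS rise was 1.26 ± 0.24 without DSS mouse 8 (adjusted p = 0.000641). Reads shared with Lyz1 of Paneth cells could touch 15.4% of its 50-base windows, and Lyz1 rose in 2 models.

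**Figure D2:**
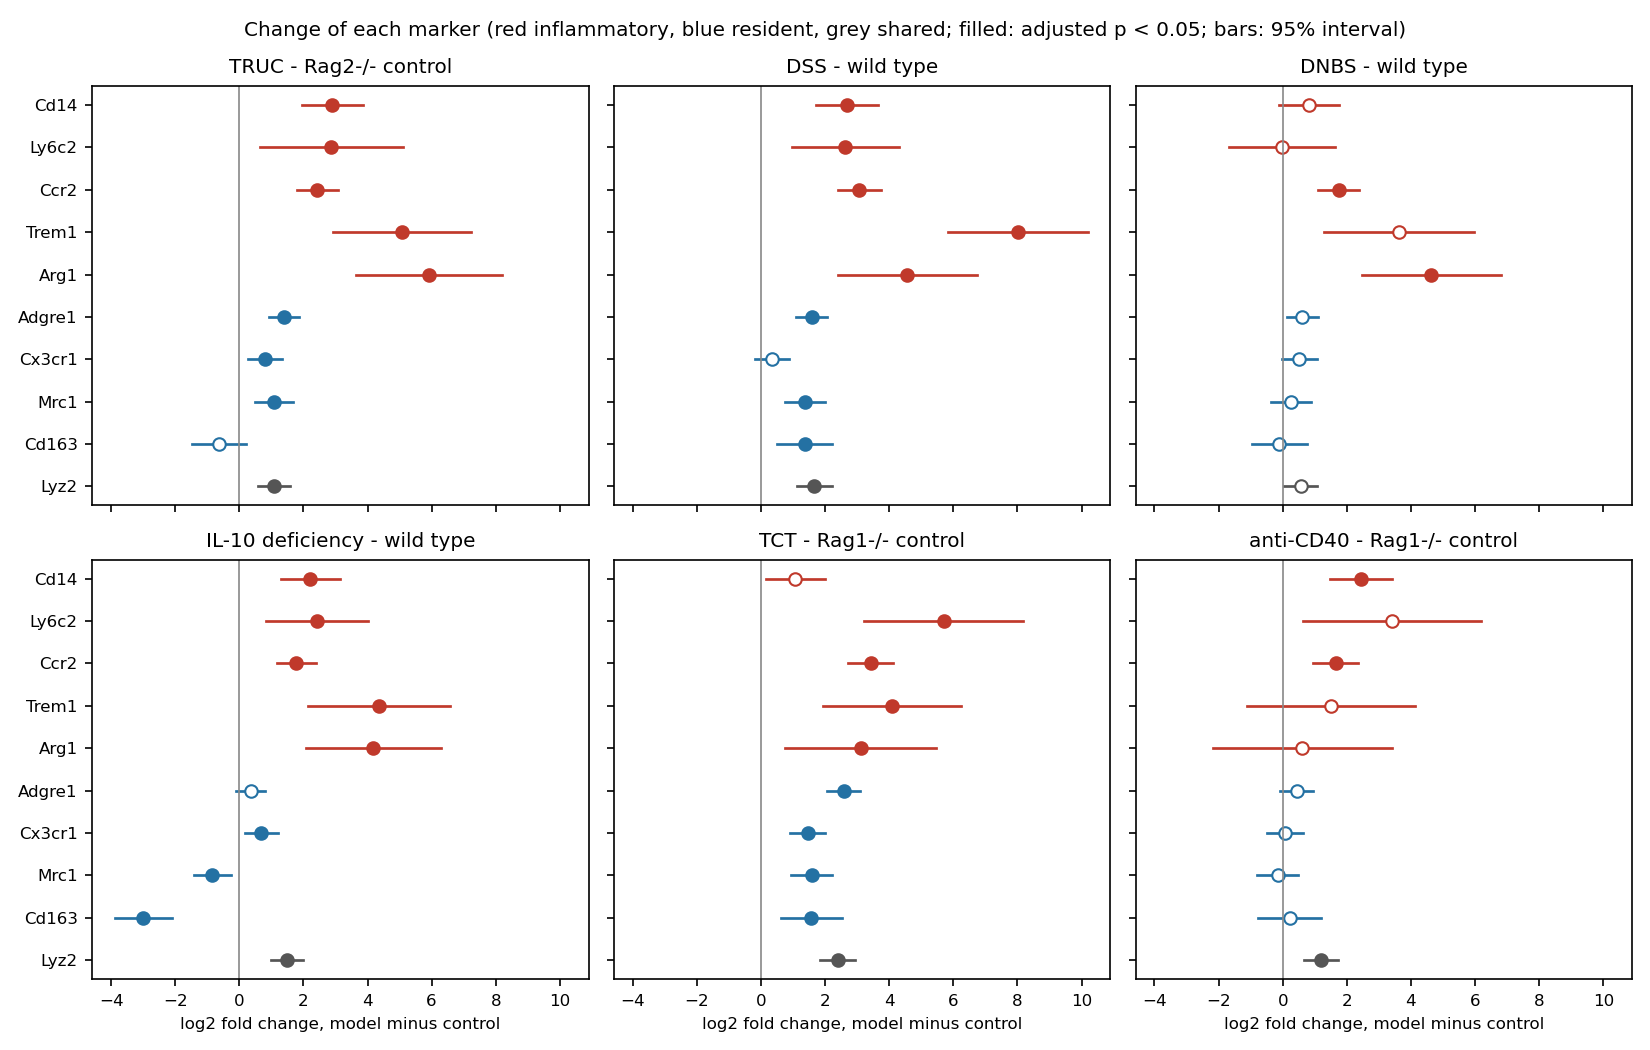
Log2 fold change of each marker in each model minus its labelled control (horizontal axis) with its 95% interval as a bar; filled points have an adjusted p under 0.05, red marks inflammatory, blue resident and grey shared markers. Inflammatory markers lie to the right of the resident ones in most panels, and Mrc1 and Cd163 lie left of 0 in IL-10 deficiency at -0.85 and -2.99.

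Compared per length of exon, the markers spanned a wide range in healthy colon. In RPKM, the CPM divided by the exon length in kilobases, the wild-type levels were 190 ± 19.1 (SD, n = 3) for Lyz2, 34.0 ± 3.88 for Cd14, 8.23 ± 1.14 for Mrc1, 7.75 ± 2.00 for Adgre1 and 3.99 ± 0.67 for Cd163. Below these came Cx3cr1 at 2.66 ± 0.16, Ly6c2 at 2.64 ± 2.18, Ccr2 at 1.91 ± 0.14, Arg1 at 0.495 ± 0.095 and Trem1 at 0.0568 ± 0.0259. By their means the resident markers thus stood above the inflammatory ones other than Cd14. Mrc1 and Adgre1 were not separable, nor was Ly6c2 from Cd163, Cx3cr1 and Ccr2. Wild-type mouse 4 had 5.15 RPKM of Ly6c2, where Cd163 ran from 3.41 to 4.73 RPKM. On the CPM scale the DSS group had the highest mean of Ly6c2, Ccr2, Trem1, Adgre1, Mrc1 and Cd163, TRUC that of Cd14 and Arg1, and TCT that of Cx3cr1 and Lyz2. Without DSS mouse 8 the DSS mean of Ly6c2 was 8.38 CPM, below the 38.5 CPM of IL-10 deficiency, and DSS kept the highest mean of the other 5. Neighbouring groups in these orders mostly overlapped, in 8 of 8 neighbour pairs for Trem1 and in 5 of 8, the fewest, for Ccr2 and Adgre1. Of the top groups, only TRUC in Cd14 and DSS in Adgre1, Mrc1 and Cd163 were clear of the group next to them.

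The balance of the 2 sets was summarised in each mouse as the mean log2 CPM of the 5 inflammatory markers minus that of the 4 resident ones, a description with no test. Wild-type mice had -2.52, -2.62 and -2.11, labelled Rag1-/- controls -1.69, -2.81 and -1.48, and Rag2-/- controls -2.09, -2.22 and -2.61. DSS mice had -1.42, -1.10 and 1.65, DNBS mice -1.40, -0.78 and -0.54, and mice with IL-10 deficiency 0.93, 0.96, 0.18 and 1.93. TCT mice had -0.66, -0.88 and -0.25, anti-CD40 mice 0.00, 0.01 and -1.21, and TRUC mice 0.34, 0.95, 0.67 and 0.29. All 9 control mice were below every mouse with colitis in this balance, although DSS mouse 5 and DNBS mouse 11 lay close to the highest control mouse at -1.48. Only IL-10 deficiency and TRUC were above 0 in every mouse.

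The balance changed most in IL-10 deficiency (3.42 on the log2 scale), followed by TRUC (2.87), DSS (2.13), anti-CD40 (1.59), DNBS (1.52) and TCT (1.39). The SD between mice of a model was 0.72, 0.31, 1.69, 0.70, 0.44 and 0.32 in that order. Without DSS mouse 8 the DSS change was 1.16, and against the other controls that of TCT was 1.82 and that of anti-CD40 1.91, so the order of the models below TRUC depended on these choices. Trem1 and Arg1 held few counts in the controls, 7 to 9 and 27 to 45 per group. Their log2 levels there depend on the prior count, and a prior count of 0.5 gave a TCT change of 1.81. With Arg1 left out the change was 2.35 in TRUC and 1.01 in DNBS. In TCT the inflammatory mean changed by 3.22 and the resident mean by 1.83 against the labelled controls, but by 2.12 and 0.29 against wild-type mice. In DSS these were 3.29 and 1.16, with 2.32 and 1.15 without DSS mouse 8, and in TRUC 3.53 and 0.66. In IL-10 deficiency the inflammatory mean went up by 2.68 and the resident mean changed by -0.75, and in DNBS these were 1.79 and 0.27. With anti-CD40 they were 1.67 and 0.07 against the labelled controls, and 1.35 and -0.56 against Rag2-/- mice. As medians of the fitted changes, the inflammatory set stood at 2.90, 3.07, 1.75, 2.43, 3.42 and 1.65 in TRUC, DSS, DNBS, IL-10 deficiency, TCT and anti-CD40, and the resident set at 0.94, 1.38, 0.39, -0.25, 1.58 and 0.15, where the median of all genes lay between -0.03 and 0.02.

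**Figure D3:**
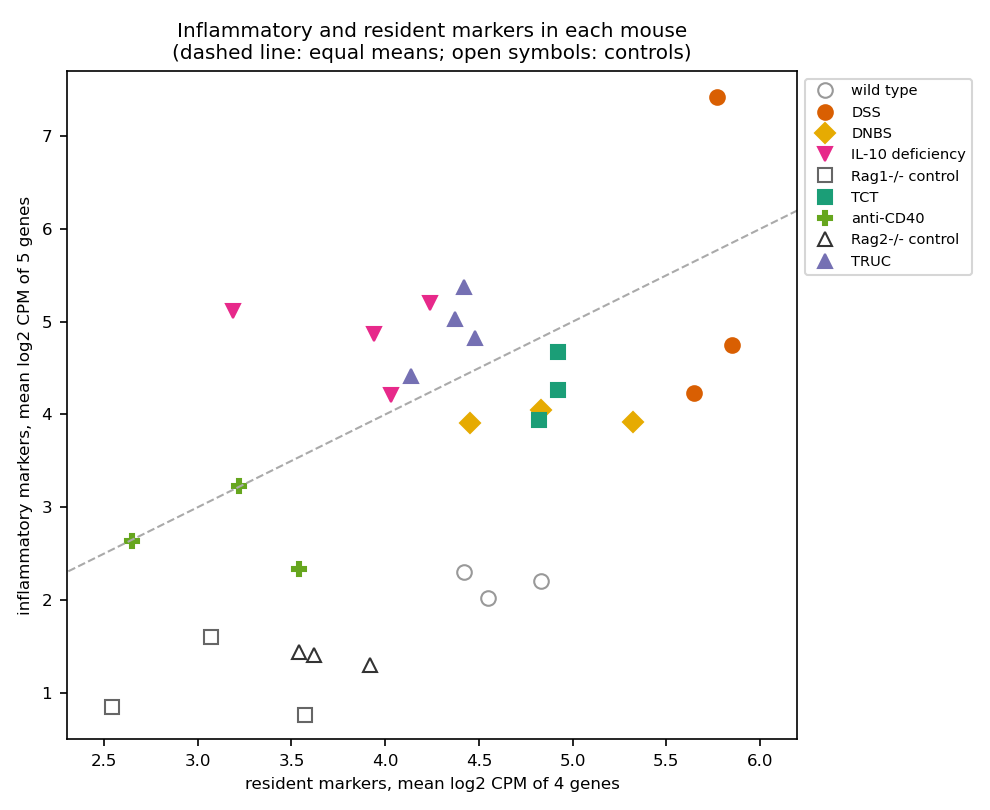
Mean log2 CPM of the 5 inflammatory markers (vertical axis) against that of the 4 resident markers (horizontal axis), 1 symbol a mouse, open for controls; the dashed line marks equal means. The 9 control mice lie between 0.76 and 2.3 on the vertical axis, and all mice with IL-10 deficiency and TRUC above the dashed line, with DSS mouse 8 highest at 7.42.

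Whether the changes differed between models was tested directly. An F test of equal changes over the 6 models passed for 9 of the 10 markers, against 60.5% of all genes, with adjusted p from 6.6e-07 for Adgre1 to 0.00993 for Ly6c2. Arg1 did not pass (adjusted p = 0.136). DSS, DNBS and IL-10 deficiency share the wild-type mice, and the mice of the 3 models were compared with each other without them.

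DSS mice exceeded DNBS mice in 8 of the 10 markers, against 22.6% of all genes called in either direction. The differences ran from 0.97 for Adgre1 to 4.38 for Trem1 (adjusted p = 0.000746). Arg1 (-0.07, interval -1.77 to 1.62) and Cx3cr1 (-0.18, interval -0.71 to 0.36) did not differ past the threshold. Without DSS mouse 8 the number was 3, and no share of all genes is given for that comparison, so this 3 cannot be set against one. IL-10 deficiency was below DSS in 5 of the 10 markers and above it in 0, against 49.8% of all genes in either direction. The number of markers was thus near the share of all genes. The differences were -4.36 ± 0.44 for Cd163 (adjusted p = 1.39e-07), -3.66 ± 0.68 for Trem1, -2.23 ± 0.28 for Mrc1, -1.29 ± 0.28 for Ccr2 and -1.23 ± 0.22 for Adgre1. Cd14, Ly6c2, Arg1, Cx3cr1 and Lyz2 did not differ past the threshold between the pair, with the widest interval that of Arg1, from -1.98 to 1.21. For Trem1, DSS mouse 8 had 122 CPM, while DSS mouse 5 at 5.41 CPM lay below mouse 4 of IL-10 deficiency at 5.54 CPM. The number of markers that differed was 7 without DSS mouse 8, with no share of all genes given. Against DNBS, mice with IL-10 deficiency had more Cd14 (1.38 ± 0.43), Ly6c2 (2.45 ± 0.77) and Lyz2 (0.93 ± 0.24) and less Cd163 (-2.88 ± 0.43) and Mrc1 (-1.10 ± 0.28), 5 of 10 markers against 33.9% of all genes. That number was 2 without DNBS mouse 11, again with no share of all genes given.

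Other genes of inflammatory monocytes, some of which neutrophils also express, had rises in all 6 models. Of 18 such genes 18 rose in DSS (17 without DSS mouse 8), 8 in DNBS and 14 in each of the other 4 models, and Vcan fell in IL-10 deficiency (-0.92). Of all genes tested 17.7% rose in DSS (10.4% without DSS mouse 8), 3.95% in DNBS and 22.4% in TRUC. The shares were 27.2% in IL-10 deficiency, 16.1% in TCT and 10.9% with anti-CD40. Their median change was 5.58 in DSS (3.84 without DSS mouse 8), 4.28 in TCT, 3.71 in TRUC, 2.95 in IL-10 deficiency, 2.78 with anti-CD40 and 2.12 in DNBS. The largest medians over models belonged to Clec4e, a receptor for mycobacterial cord factor (7.91, over control mice with 0 to 2 counts), and its neighbour Clec4d (5.09), and the smallest to Thbs1 (0.49) and Vcan (0.82). Against the other controls 13 rose in TCT and 13 with anti-CD40. The part of neutrophils in these values was not tested.

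Other genes of resident macrophages moved in both directions, in several models at shares near those of all genes given above. Of 18 genes 6 rose and 5 fell in TRUC, 11 rose and 2 fell in DSS (9 and 2 without DSS mouse 8), 1 rose and 1 fell in DNBS, 6 rose and 7 fell in IL-10 deficiency, 12 rose and 2 fell in TCT, and 4 rose and 1 fell with anti-CD40. Their medians were 0.20, 1.07, 0.36, -0.26, 1.39 and 0.04 in that order. The complement genes C1qb and C1qa, made by gut macrophages, had the highest medians over models (1.48 and 1.39), C1qb rising in 6 of 6 models. Mertk, a receptor for the uptake of dying cells, had a median of -0.86 and fell in 5 models. In IL-10 deficiency the falls beside Cd163 and Mrc1 included F13a1 (-3.00), Vsig4 (-2.80), Folr2 (-2.64), Cd209f (-1.90), Mertk (-0.87) and Lyve1 (-0.87), named after their values were seen. Vsig4 and Folr2 rest on few counts, with 4 to 16 and 8 to 18 in wild-type mice and 0 to 3 and 1 to 2 in the model. The 6 that rose there included the 3 C1q genes. Their means were 226 CPM for C1qa, 175 CPM for C1qb and 171 CPM for C1qc, against 87.7, 63.2 and 83.4 CPM in wild-type mice. Against wild-type mice 7 of the 18 rose and 4 fell in TCT, with a median of 0.57, and against Rag2-/- mice 4 rose and 2 fell with anti-CD40.

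Genes common to macrophages of either state rose without a fall in any model. Of 11 such genes all 11 rose in TCT (10 against wild-type mice), 10 in TRUC and DSS (9 without DSS mouse 8), 9 in IL-10 deficiency, 7 with anti-CD40 (5 against Rag2-/- mice) and 4 in DNBS. These counts stand beside the shares of all genes given above. Cd74 held much of their summed level, and the sum of the other 10 was 583 to 602 CPM in wild-type mice, 1010 to 2700 CPM in DSS, 648 to 830 CPM in DNBS and 1090 to 1300 CPM in IL-10 deficiency. It was 339 to 360 CPM in mice labelled Rag1-/- control, 1100 to 1760 CPM in TCT, 420 to 516 CPM with anti-CD40, 346 to 430 CPM in Rag2-/- controls and 562 to 770 CPM in TRUC, and none of the 11 was at 0 in a whole group. Aif1 (2.21) and Cd74 (2.63), an MHC class II chaperone that B cells also make, had the highest medians over models, and Ctss (0.35) and Csf1r (0.83), the receptor macrophages need to survive, the lowest. In IL-10 deficiency Csf1r measured 0.58 without passing the test, beside the fall of Cd163. The ligands of that receptor, Csf1 and Il34, rose in 2 and 3 models by at most 1.10.

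**Figure D4:**
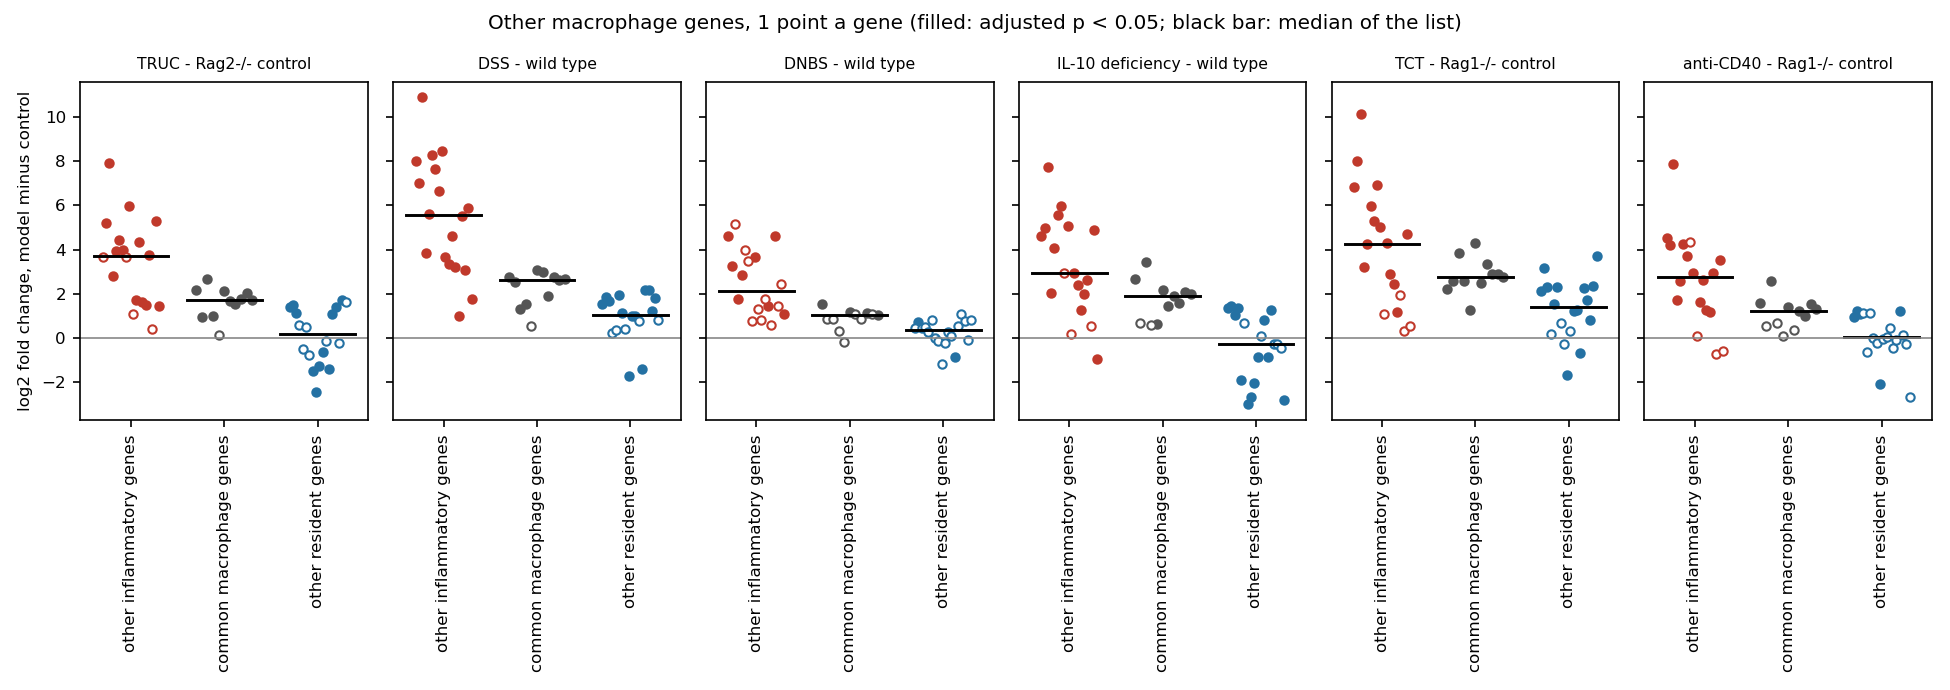
Log2 fold change in each model minus its labelled control (vertical axis) of 18 other inflammatory, 11 common and 18 other resident macrophage genes, 1 point a gene, filled where the adjusted p is under 0.05, with a black bar at the median of the list. The inflammatory lists sit highest in every panel, with medians of 2.12 in DNBS to 5.58 in DSS (3.84 without DSS mouse 8), and the resident list straddles 0 in IL-10 deficiency at a median of -0.26.

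For each marker the genes with the most similar pattern were taken by Pearson's r of log2 CPM over the 29 mice among 15405 genes, as a description. The mice share groups and libraries, so high values follow from any common change with colitis. Ccr2 was closest to Fcgr1 (0.973), the high-affinity IgG receptor, then Clec4a3 and B430306N03Rik (0.963 each), and Trem1 to Il1b (0.966), Ifitm1 (0.962) and Stfa2l1 (0.957). Adgre1 was closest to C3ar1 (0.961), Nckap1l (0.953) and Tm6sf1 (0.952), Lyz2 to Sirpa (0.955), Myo1f (0.953) and Cybb (0.949), Cd14 to Stom (0.945), Xdh (0.938) and Socs3 (0.933), and Ly6c2 to Cd52 (0.938), Lat2 (0.934) and Ifi209 (0.931). Cd163 was nearest to Prune2 (0.952), Kcnmb1, a channel subunit of smooth muscle (0.941), and F13a1 (0.941), Mrc1 to Gja1 (0.924), P2ry14 (0.91) and Pdgfra (0.884), Arg1 to Igf1 (0.925), Tnfrsf23 (0.917) and Igfbp4 (0.898), and Cx3cr1 to Sod3 (0.857), Acsbg1 (0.834) and Robo2 (0.83).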

How the data were processed

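Colon RNA of 29 mice was sequenced from poly(A)-selected, unstranded libraries. The authors deposited whole-number read counts per gene, and the submitters' processing notes name Trimmomatic, HISAT2, HTSeq and GRCm38 with no versions. No normalization had been applied, and 92 spike-in rows held 0 counts. Groups followed the labels. Depth was 10725564 to 14977094 counts per mouse, and intervals on pooled counts are exact and cover counting error only.

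The 18616 of 54532 genes whose counts averaged 3 or more were tested with edgeR 4.0.16 in R 4.3.3, a two-sided quasi-likelihood test with TMM scaling on all 9 groups in 1 fit without covariates, so that groups share 1 estimate of the spread. P-values were adjusted over all genes tested (Benjamini-Hochberg) at 0.05. Mean log2 levels used a prior count of 2. The balance of markers has no test. The named genes were the 10 markers, their ligands and partners, the 3 genes most like each marker with a mean of at least 1 CPM, and the 2 highest and 2 lowest of each other list by median change, except that some items are not reported here. The markers and lists were chosen with earlier results of these data known.

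Tested on simulated counts of the TRUC comparison over 18616 genes, the fit recovered 58 of 100 genes changed 2-fold and 100 of 100 changed 4-fold, with 10 others called. Alternatives were DESeq2 1.42.0, edgeR on each pair of groups alone, upper quartile and RLE scaling, other filters, a threshold of 0.01, other controls, a replicate block and leaving out each mouse. Mice that share a number did not deviate together (correlations of -0.058 to 0.034), so numbers were not taken to pair mice.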

Additional observations from a re-analysis of the deposited data

Results flagged for a closer look

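The changes of 9 markers differed between the 6 models by the F test of equal changes (edgeR, adjusted p). These were Adgre1 (6.6e-07), Cd163 (1.08e-06), Mrc1 (3.06e-06), Ccr2 (4.48e-05), Trem1 (5.62e-05), Lyz2 (0.000217), Cx3cr1 (0.00277), Cd14 (0.00335) and Ly6c2 (0.00993). For Adgre1 the range ran from 0.35 in IL-10 deficiency to 2.58 in TCT, for Cd163 from -2.99 in IL-10 deficiency to 1.57 in TCT, and for Mrc1 from -0.85 to 1.58 in the same models. The controls of TCT differ from the TCT mice in genotype genes, and that model is part of the test.

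A single mouse lay far from the other 3 of its group for 2 markers. TRUC mouse 3 had 6.49 CPM of Ly6c2, where the others had 2.36 to 3.02 CPM, and TRUC mouse 5 had 23.2 CPM of Adgre1, where the others had 32 to 32.5 CPM. With 22 sets of 4 mice examined, chance alone flags about 1 in 20.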

How the results depend on the processing

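Of 859 values of a marker in a model under an alternative, 793 kept their side of the threshold, 46 lost the call and 18 gained it. These 793 include changes of sign where neither fit called the marker, such as Arg1 with anti-CD40 at -0.36 without anti-CD40 mouse 7. Another 2 changed sign with a call in 1 of the fits, both Cd163. They were -1.01 for TCT against wild-type mice and -1.26 for anti-CD40 against Rag2-/- mice, and genotype and control cannot be told apart there. For anti-CD40 against Rag2-/- mice the markers that fell numbered 1. DESeq2 gave 6 rises in DNBS and 1 fall in TRUC, and edgeR on each pair of groups alone gave 4 rises in DNBS, 1 fall in TRUC and 1 in IL-10 deficiency. A threshold of 0.01 gave 1 rise in DNBS, 1 fall in IL-10 deficiency, and 3 markers apart between IL-10 deficiency and DNBS. With the replicate block on mice that share a number 1 marker fell in TRUC, as it did in those mice unpaired, where IL-10 deficiency also gave 1 fall. The balance changed by 2.35 in TRUC and 1.01 in DNBS without Arg1, and in TCT by 1.81 with a prior count of 0.5 and 1.82 against wild-type mice (chosen after seeing the data). The cause was not tested in these cases, and no share of all genes is given beside these counts.

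Leaving out 1 mouse at a time gave rises of 8 to 9 in TRUC, 8 to 9 in DSS, 1 to 3 in DNBS, 5 to 7 in IL-10 deficiency, 7 to 9 in TCT and 3 with anti-CD40, and falls of 1 to 2 in IL-10 deficiency and 0 in the others. The lowest DNBS number was without wild-type mouse 1 or 2, and the single fall in IL-10 deficiency came without wild-type mouse 2 or mouse 4 of the model. Over all genes the numbers moved too, with 3373 to 3950 rises in TRUC, 1940 to 3242 in DSS and 156 to 1365 in DNBS. There were 4194 to 4868 in IL-10 deficiency, 2333 to 3040 in TCT and 928 to 2233 with anti-CD40. Falls over all genes in IL-10 deficiency numbered 4156 to 4758. In DNBS the all-gene rises were 156 and 171 without wild-type mouse 1 and 2, and 1365 without DNBS mouse 11. DSS and DNBS then differed in 3 to 8 markers, 3 without DSS mouse 8, IL-10 deficiency and DNBS in 2 to 5, 2 without DNBS mouse 11, and IL-10 deficiency and DSS in 5 to 7. The F test passed for 9 to 10. No share of all genes is given for these comparisons between models or for the F test with a mouse left out. The balance in TCT changed by 0.985 without Rag1-/- control mouse 3 to 1.65 without mouse 4, and in DSS by 1.16 without mouse 8 to 2.69 without mouse 5. DESeq2 gave no adjusted p for Ly6c2 in DSS. Upper quartile scaling shifted the median of all genes by -0.106 in TRUC and -0.166 in IL-10 deficiency. Depth limits Trem1 and Ly6c2, with 7 to 9 counts of Trem1 in each control group and 8 to 18 of Ly6c2 in the Rag1-/- and Rag2-/- controls.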

Other observations

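Dendritic cells share genes with macrophages, and their markers split. Of 7 such genes 5 rose in IL-10 deficiency, 4 in DSS (3 without DSS mouse 8) and TCT (3 against wild-type mice), 3 in TRUC, 2 with anti-CD40 (1 against Rag2-/- mice) and 0 in DNBS, and 1 fell in IL-10 deficiency, TCT and anti-CD40 each. The shares of all genes that rose or fell are those given with the counts of markers. Itgax, the CD11c integrin that colon macrophages also carry, rose in 5 models with a median change of 1.53, and Ccr7, which guides migration to lymph nodes, in 4 with a median of 2.06. Cd209a, a lectin of monocyte-derived dendritic cells, fell in 3 models, with a median of -1.67 and a range from -3.49 to 0.10.

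Of 4 eosinophil markers tested, Siglecf rose in 3 models (median 0.99), Ccr3 in 2 (median 2.12), Prg2 in 1 (median -0.48) and Ear2 rose in 1 and fell in 1 (median -0.41).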
